A study of Mus musculus with 8 samples.

Results

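The genes described are 45 genes of transforming growth factor beta (TGF-beta) and bone morphogenetic protein (BMP) signalling, chosen by symbol from the 21878 genes of the deposited expression table. They are 12 ligand genes, 9 receptor genes, 5 genes of ligand latency and matrix processing, 6 antagonist genes, 8 Smad genes, the 4 Id genes and Tgfbi. RNA came from astrocytes, glial cells of the brain, of wild-type C57BL/6 mice taken at P0, the day of birth. Cells of 4 libraries, called cocktail libraries here, had been given IL-1α and TNFα, 2 inflammatory cytokines, together with C1q, a complement protein, and those of the other 4 libraries were untreated. The treatment serves to make astrocytes reactive and positive for C3d, a complement C3 fragment, and the comparison asks which transcripts then differ from resting cells. Dose, treatment time and whether libraries came from separate cultures are not given in the labels, so p-values rest on library-to-library spread alone, and that spread may be technical. Pooling of animals, the number of animals and the culture method are not given in the labels either.

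TGF-beta family ligands are secreted dimers that bring together type I and type II receptor kinases on the cell surface. TGF-betas and activins signal mainly through Smad2 and Smad3, and BMPs through Smad1, Smad5 and Smad9, each with the common partner Smad4. TGF-betas are secreted in a latent form held in the matrix, and BMPs and activins are held back by secreted binding proteins. In the developing brain BMP signalling favours astrocyte formation, and TGF-beta is known for its part in glial scarring.

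Levels are FPKM, fragments scaled to the length of the gene and to the total of the library, so that genes can be compared per length. Depth was 19195898 to 20640490 fragments per library. Of the 45 genes, 42 reached 1 FPKM in 4 or more of the 8 libraries and were tested by limma on log2(FPKM + 1). Adjusted p-values are Benjamini-Hochberg values over all 11845 genes tested, and a gene was called at an adjusted p under 0.05. Log2 changes are cocktail minus untreated on that scale, which understates changes of genes at low FPKM. Inhba and Bmp2 passed the filter only through the cocktail libraries and Bmp7 mainly through the untreated ones, so their difference is partly a condition of their entry.

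The libraries matched their cell type for most astrocyte markers. Aqp4 and Slc1a3 averaged 253 ± 5.12 and 221 ± 7.30 FPKM in cocktail libraries, against 165 ± 4.43 and 254 ± 19.7 in untreated libraries (SD, n = 4 each). The 10 astrocyte markers summed to 1213 to 1242 FPKM in cocktail and 1396 to 1550.5 FPKM in untreated libraries, with 2 called higher and 7 lower. The 2 higher ones were Aqp4 and Slc1a2, which averaged 52.3 FPKM in cocktail and 9.73 in untreated libraries, and Glul was not called. Among the 7 lower ones Gfap averaged 189 FPKM in cocktail and 412 in untreated libraries, Aldoc 25.3 and 76.7, and Gja1 32.4 and 64.4. Sox9 averaged 30.0 and 57.4 FPKM, and Aldh1l1 55.4 and 91.0. S100b was near absent, at 0.291 FPKM in cocktail and 1.18 in untreated libraries. Some markers of other cells were present and moved with treatment. The summed level of 10 microglial markers was 15.8 to 47.3 FPKM in cocktail libraries, with libraries 3 and 4 above 1 and 2, against 11.4 to 13.0 in untreated libraries, and all 5 tested ones rose. Sums of 7 mural markers were 240.3 to 264 and 1120.0 to 1273 FPKM, of 7 neuronal markers 49.5 to 56.2 and 139 to 157, of 10 fibroblast markers 119 to 149 and 137 to 161, and of 6 ependymal and choroid markers 71.9 to 84.4 and 126 to 139.6, each in cocktail and in untreated libraries. Sums of 8 oligodendrocyte lineage markers were 97.1 to 102 and 166 to 176 FPKM and of 6 endothelial markers 1.38 to 1.80 and 4.81 to 5.34, with Mog and Cldn5 at 0 in every library. The largest values were those of Stmn2 in the neuronal, Acta2 and Tagln in the mural, Olig1 in the oligodendrocyte lineage and Foxj1 in the ependymal sum. Below 1 FPKM in every library were the neuronal Rbfox3, Snap25 and Dcx, the mural Myh11 and Kcnj8, and the oligodendrocyte lineage Sox10, Mbp and Mog. So were the ependymal and choroid Ttr, Kl and Tmem212, the microglial P2ry12, Tmem119 and Ptprc, the fibroblast Slc6a13 and 5 endothelial markers. All 5 tested mural markers fell, as did 2 of 3 neuronal, 3 of 5 oligodendrocyte lineage markers, where Pdgfra rose, the 3 tested ependymal and the 1 tested endothelial marker, while 4 of 9 fibroblast markers rose and 3 fell. The markers Kdr (endothelial), Ccdc153 (ependymal), Rgs5 (mural) and S100b passed the filter only through the untreated libraries, and Lum (fibroblast) only through the cocktail libraries. Of all genes tested 26.6% were called higher and 41.1% lower. In bulk RNA, fewer cells of a type and less RNA per cell cannot be told apart, and the part of other cell types in the results that follow was not tested.

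Of the 42 tested genes 34 were called, 17 higher and 17 lower in cocktail libraries, where 67.7% of all genes tested were called, 26.6% higher and 41.1% lower. Of the 42, 14 were called and changed 2-fold or more in mean FPKM, 7 higher and 7 lower, against 13.1% of all genes tested, 5.24% higher and 7.86% lower. The higher ones include Inhba and Bmp2 and the lower ones Bmp7, genes whose difference is partly a condition of passing the filter. The groups did not overlap in 33 of the 42, against 62.7% of all genes. The median log2 change of the 42 was -0.018 and that of all genes tested -0.050. The rises and falls were divided within almost every role, as the plot of changes by role shows.

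**Figure D1:**
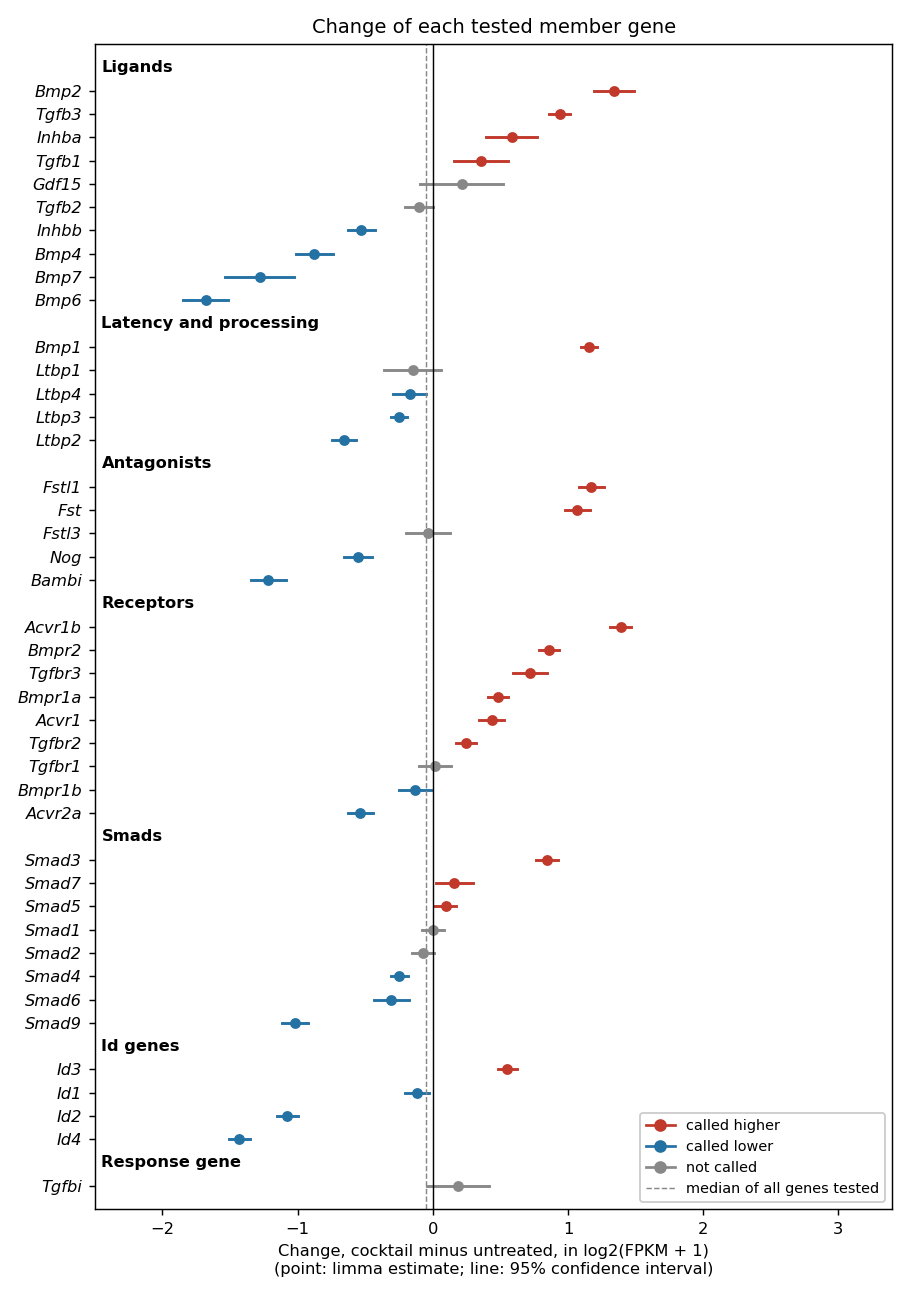
Log2 change of each of the 42 tested genes, cocktail minus untreated in log2(FPKM + 1) on the horizontal axis, grouped by role on the vertical axis. Points are limma estimates, lines their 95% confidence intervals, red genes were called higher, blue genes called lower and grey genes not called, and the dashed line is the median of all genes tested. Acvr1b stands at 1.39 and Bmp2 at 1.34, at the upper end, and Bmp6 at -1.68 and Id4 at -1.43, at the lower end.

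Among ligand genes, those of TGF-beta were higher or not called in cocktail libraries and most of those of the BMPs were lower. Tgfb3 rose 1.93-fold, Bmp6 fell to 20.5 FPKM in cocktail libraries, against 67.7 in untreated libraries, and Bmp2 rose 7.78-fold at a low level. Of 10 tested ligand genes 4 were called higher and 4 lower, against 26.6% and 41.1% of all genes tested. Inhba and Bmp2 among the higher ones and Bmp7 among the lower ones owe their entry to the filter as described above.

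Tgfb3 was the most abundant TGF-beta ligand gene in every library. It stood at 129, 138, 124 and 124 FPKM in cocktail libraries 1 to 4, against 66.8, 66.5, 65.1 and 67.9 FPKM in untreated libraries 1 to 4. Every cocktail library was above every untreated one, and the difference was called (log2 change 0.94 with a standard error of 0.036, adjusted p = 4.3e-10). Tgfb3 lies on chromosome 12 from 86056743 to 86079041 of GRCm38, the assembly that mm10 names.

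Tgfb1, the ligand best known from immune cells, had 4.16, 4.38, 5.29 and 5.96 FPKM in cocktail libraries 1 to 4, against 3.53, 3.93, 3.82 and 3.19 FPKM in untreated libraries 1 to 4. The groups did not overlap, cocktail libraries 3 and 4 were above 1 and 2, and the gene was called higher (log2 change 0.36 with a standard error of 0.091, adjusted p = 0.0043). Microglia also express Tgfb1, and the sum of the 10 microglial markers was 15.8, 16.4, 35.0 and 47.3 FPKM in the same cocktail libraries. Without cocktail libraries 3 and 4, where those markers were highest, the log2 change of Tgfb1 was 0.19 (limma, adjusted p = 0.043), and without libraries 1 and 2 it was 0.52 (limma, adjusted p = 1.9e-04). The part of microglia in the change of Tgfb1 was not tested.

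Tgfb2 had 18.2, 19.3, 21.4 and 18.6 FPKM in cocktail libraries 1 to 4, against 20.8, 21.6, 20.7 and 20.3 FPKM in untreated libraries 1 to 4. The groups overlapped through cocktail library 3, and the change was not called (log2 change -0.10, 95% interval -0.20 to 0.00, adjusted p = 0.074). It was called lower without cocktail library 3 (log2 change -0.15, limma adjusted p = 0.0039). The 3 TGF-beta ligand genes summed to 153 ± 5.92 FPKM in cocktail and 91.1 ± 1.02 FPKM in untreated libraries, and Tgfb3 made up 84.1% ± 1.51 and 73.1% ± 0.888 of that sum (SD, n = 4 each). Tgfb2 held 12.7% ± 1.08 of the sum in cocktail and 22.9% ± 0.524 in untreated libraries (SD, n = 4 each).

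Activins are dimers of inhibin beta subunits, and the 2 subunit genes moved in opposite directions. Inhba had 1.32, 1.14, 1.53 and 1.77 FPKM in cocktail libraries 1 to 4, against 0.541, 0.512, 0.672 and 0.767 FPKM in untreated libraries 1 to 4. These values rest on 194, 162, 230 and 264 fragments in cocktail and 77, 72, 99 and 116 fragments in untreated libraries, with no overlap between groups. It was called higher (log2 change 0.59 with a standard error of 0.086, adjusted p = 7.5e-05). Inhbb, the more abundant subunit gene, ranged over 5.74 to 6.50 FPKM in cocktail and 8.86 to 9.56 FPKM in untreated libraries and was called lower (log2 change -0.53 with a standard error of 0.046, adjusted p = 7.7e-07).

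Bmp6 was the main BMP ligand gene of these cells. It had 22.3, 22.7, 19.1 and 17.8 FPKM in cocktail libraries 1 to 4, against 71.2, 73.0, 63.6 and 62.9 FPKM in untreated libraries 1 to 4. All cocktail libraries lay far below the untreated ones, a 3.30-fold difference of means (log2 change -1.68 with a standard error of 0.075, adjusted p = 1.8e-09). Bmp6 lies on chromosome 13 from 38345716 to 38500314, where its exons overlap those of Txndc5 on the other strand. Txndc5 averaged 74.3 ± 2.24 FPKM in cocktail and 87.9 ± 0.696 FPKM in untreated libraries (SD, n = 4 each), and whether the counting used strand is not given in the sources used here.

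Bmp7, a close relative of Bmp6, had 1.21, 1.65, 0.930 and 0.685 FPKM in cocktail libraries 1 to 4, against 4.13, 4.54, 3.92 and 3.71 FPKM in untreated libraries 1 to 4. Cocktail libraries 3 and 4 were the lowest, and the gene was called lower (log2 change -1.28 with a standard error of 0.117, adjusted p = 1.1e-06). Bmp4 had 1.83, 1.81, 1.51 and 1.62 FPKM in cocktail libraries 1 to 4, against 4.08, 3.51, 4.20 and 3.98 FPKM in untreated libraries 1 to 4. No value of one group fell in the range of the other, and Bmp4 was called lower (log2 change -0.88 with a standard error of 0.062, adjusted p = 1.2e-07).

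Bmp2, whose protein is most like that of Bmp4, went the other way. It had 2.01, 2.58, 2.28 and 2.25 FPKM in cocktail libraries 1 to 4, against 0.347, 0.219, 0.335 and 0.272 FPKM in untreated libraries 1 to 4. The fragments behind these values were 144, 178, 167 and 163 in cocktail and 24, 15, 24 and 20 in untreated libraries, and every cocktail library exceeded every untreated one. The call was higher (log2 change 1.34 with a standard error of 0.067, adjusted p = 5.0e-09), and on the recovered fragments limma voom gave a log2 change of 2.94 ± 0.19 (standard error). Bmp2 lies on chromosome 2 from 133552159 to 133562896.

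The 5 BMP ligand genes summed to 25.6 ± 2.99 FPKM in cocktail and 76.0 ± 5.31 FPKM in untreated libraries. Bmp6 held 80.1% ± 1.06 of that sum in cocktail and 89.0% ± 0.664 in untreated libraries, and Bmp2 held 8.99% ± 1.18 and 0.388% ± 0.0861 (SD, n = 4 each). Bmp5 was not tested and had 1, 1, 1 and 0 fragments in cocktail and 2, 4, 3 and 0 fragments in untreated libraries.

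Gdf10, a ligand related to BMP3, was also not tested, at 0.687 to 0.812 FPKM in cocktail and 0.788 to 1.18 FPKM in untreated libraries. Gdf15, a stress-induced cytokine of the family, had 9.84, 8.91, 6.94 and 5.68 FPKM in cocktail libraries 1 to 4, against 5.28, 6.22, 7.47 and 7.20 FPKM in untreated libraries 1 to 4. Its groups overlapped and it was not called (log2 change 0.21, 95% interval -0.09 to 0.52, adjusted p = 0.20). Without cocktail library 4 it was called higher (log2 change 0.34, limma adjusted p = 0.024), as it was without libraries 3 and 4 (log2 change 0.47, adjusted p = 0.0033), and without libraries 1 and 2 the change was -0.042 (adjusted p = 0.77).

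**Figure D2:**
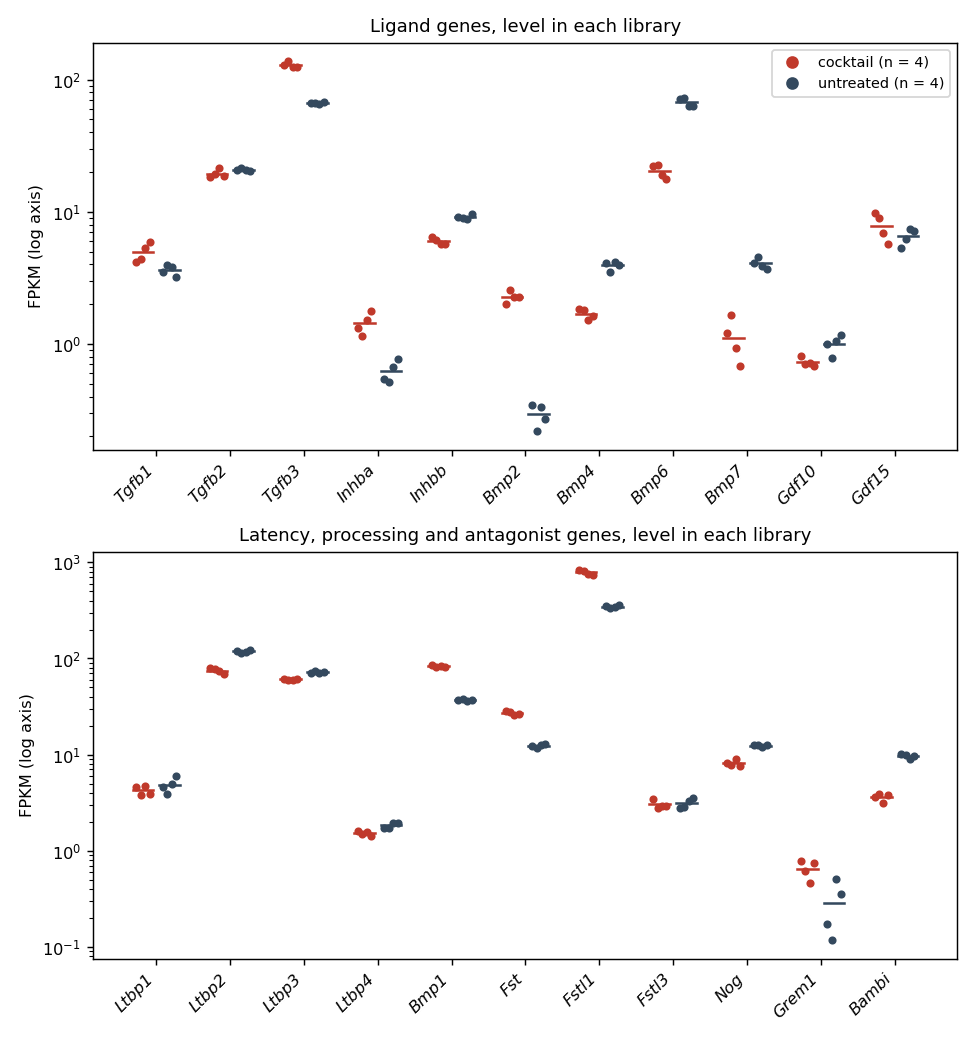
FPKM of ligand genes (top) and of latency, processing and antagonist genes (bottom) in each library, on a log axis. Points are libraries, with the 4 cocktail libraries in red left of the 4 untreated libraries in dark blue, and lines are group means. Bmp5, at 0 in 1 library of each group, is not drawn. Tgfb3 and Bmp2 lie higher in every cocktail library and Bmp4, Bmp6 and Bmp7 lower.

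The latent TGF-beta binding protein genes were lower or not called, and the matrix protease gene Bmp1 rose. Bmp1, which despite its name encodes a metalloprotease that matures collagens and cleaves the BMP antagonist chordin, had 86.4, 82.3, 83.3 and 81.8 FPKM in cocktail libraries 1 to 4, against 36.7, 37.6, 36.3 and 36.7 FPKM in untreated libraries 1 to 4. The cocktail libraries were all above the untreated ones (log2 change 1.16 with a standard error of 0.027, adjusted p = 6.9e-12). Bmp1 lies on chromosome 14 from 70474555 to 70520716.

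Of the 4 latent TGF-beta binding protein genes 3 were called lower, against 41.1% of all genes tested. Ltbp2, a matrix protein of the family that does not itself bind latent TGF-beta, ranged over 69.8 to 79.1 FPKM in cocktail and 114 to 123 FPKM in untreated libraries (log2 change -0.66 with a standard error of 0.040, adjusted p = 2.8e-08). Ltbp3, which does bind it, ranged over 59.8 to 61.8 FPKM in cocktail and 70.1 to 74.4 FPKM in untreated libraries (log2 change -0.25 with a standard error of 0.028, adjusted p = 7.0e-06).

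Ltbp4 averaged 1.52 ± 0.0808 FPKM in cocktail and 1.84 ± 0.129 FPKM in untreated libraries (SD, n = 4 each; limma, adjusted p = 0.017), and that call was lost without cocktail libraries 3 and 4 (adjusted p = 0.072). Ltbp1, the classical carrier of latent TGF-beta, averaged 4.27 ± 0.442 and 4.87 ± 0.863 FPKM in cocktail and untreated libraries (SD, n = 4 each) and was not called (95% interval of the log2 change -0.36 to 0.06, adjusted p = 0.19). It was called lower without untreated library 2 (log2 change -0.23, limma adjusted p = 0.038).

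Antagonist genes did not move together. The activin-binding follistatin gene Fst and its relative Fstl1 rose more than 2-fold, while the BMP antagonist gene Nog and the decoy receptor gene Bambi fell. Fst had 28.5, 27.9, 25.8 and 26.1 FPKM in cocktail libraries 1 to 4, against 12.3, 11.6, 12.7 and 12.9 FPKM in untreated libraries 1 to 4. The cocktail libraries all stood above the untreated ones (log2 change 1.07 with a standard error of 0.043, adjusted p = 6.3e-10).

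Fstl1 encodes a secreted glycoprotein related to follistatin and was the most abundant of the 45 genes in cocktail libraries. It had 829, 816, 751 and 744 FPKM in cocktail libraries 1 to 4, against 355, 332, 345 and 358 FPKM in untreated libraries 1 to 4. The groups were clearly apart, with cocktail libraries 3 and 4 the lower ones of their group (log2 change 1.17 with a standard error of 0.041, adjusted p = 2.1e-10). Fstl1 lies on chromosome 16 from 37777055 to 37836516.

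Bambi encodes a receptor-like protein without a kinase that blocks signalling by TGF-beta family receptors. It had 3.65, 3.89, 3.14 and 3.78 FPKM in cocktail libraries 1 to 4, against 10.2, 10.02, 8.94 and 9.69 FPKM in untreated libraries 1 to 4. No cocktail library reached the range of the untreated libraries (log2 change -1.22 with a standard error of 0.060, adjusted p = 4.2e-09). Nog, whose product noggin binds BMPs and keeps them from their receptors, ranged over 7.64 to 8.96 FPKM in cocktail and 11.9 to 12.7 FPKM in untreated libraries and was called lower (log2 change -0.55 with a standard error of 0.048, adjusted p = 7.3e-07).

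Fstl3, another activin-binding gene, averaged 3.03 ± 0.315 FPKM in cocktail and 3.14 ± 0.366 FPKM in untreated libraries (SD, n = 4 each) and was not called (95% interval of the log2 change -0.20 to 0.12). Grem1, which encodes the BMP antagonist gremlin, was not tested. It had 28, 21, 17 and 27 fragments in cocktail libraries 1 to 4, against 6, 4, 18 and 13 fragments in untreated libraries 1 to 4, and the groups overlapped through untreated library 3. When the filter on low values was dropped, Grem1 was called higher (limma, adjusted p = 0.012) and Gdf10 lower (limma, adjusted p = 0.015).

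Most receptor genes rose. Of 9 tested 6 were called higher and 2 lower, where 26.6% of all genes tested were called higher and 41.1% lower, and the rises included both type I and type II receptors. Acvr1b, the type I receptor of activins, had the largest rise of the 9, and its log2(FPKM + 1) change was above that of Bmp2, although Bmp2 rose more in fold and by voom. It stood at 34.9, 34.0, 34.4 and 35.9 FPKM in cocktail libraries 1 to 4, against 12.4, 13.5, 12.5 and 12.2 FPKM in untreated libraries 1 to 4. The lowest cocktail library was far above the highest untreated one (log2 change 1.39 with a standard error of 0.036, adjusted p = 1.6e-11). Acvr1b lies on chromosome 15 from 101174072 to 101213684.

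Tgfbr3 encodes betaglycan, a co-receptor without kinase activity that presents TGF-beta and binds inhibin. It had 3.14, 2.90, 2.83 and 3.28 FPKM in cocktail libraries 1 to 4, against 1.32, 1.57, 1.42 and 1.51 FPKM in untreated libraries 1 to 4. All 4 cocktail libraries exceeded all 4 untreated ones (log2 change 0.72 with a standard error of 0.057, adjusted p = 3.5e-07). Bmpr2, the type II receptor of BMPs, ranged over 31.5 to 33.8 FPKM in cocktail and 17.1 to 18.2 FPKM in untreated libraries (log2 change 0.86 with a standard error of 0.033, adjusted p = 4.9e-10).

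Bmpr1a, a type I receptor of BMPs and the most abundant receptor gene of the 9, ranged over 132 to 144 FPKM in cocktail and 95.7 to 101 FPKM in untreated libraries (log2 change 0.48 with a standard error of 0.033, adjusted p = 9.4e-08). Acvr1, another type I receptor used by BMPs, rose 1.39-fold (adjusted p = 1.9e-06), and Tgfbr2, the type II receptor of TGF-beta, rose 1.20-fold (adjusted p = 4.8e-05). Tgfbr1, its type I partner, averaged 4.59 ± 0.348 FPKM in cocktail and 4.52 ± 0.194 FPKM in untreated libraries (SD, n = 4 each) and was not called (95% interval of the log2 change -0.10 to 0.13).

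Acvr2a, a type II receptor of activins, fell to a range of 2.87 to 3.01 FPKM in cocktail libraries, against 4.54 to 4.87 FPKM in untreated libraries (log2 change -0.53 with a standard error of 0.043, adjusted p = 3.7e-07). Orc4, whose exons overlap those of Acvr2a on the other strand, averaged 6.76 ± 0.165 and 6.96 ± 0.163 FPKM in cocktail and untreated libraries (SD, n = 4 each). Bmpr1b, the other BMP-specific type I receptor, averaged 1.495 ± 0.0790 FPKM in cocktail and 1.73 ± 0.0891 FPKM in untreated libraries (SD, n = 4 each; limma, adjusted p = 0.044). That call depended on single libraries. It held without cocktail library 3 (adjusted p = 0.037) and was lost when cocktail library 1, 2 or 4 was left out (adjusted p = 0.094, 0.068 and 0.099), or untreated library 1, 2, 3 or 4 (adjusted p = 0.12, 0.058, 0.059 and 0.062).

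In summed FPKM the 5 type I receptor genes reached 192 ± 6.78 in cocktail and 127 ± 2.64 in untreated libraries. Acvr1b made up 18.1% ± 0.578 of that sum in cocktail and 9.97% ± 0.429 in untreated libraries, and Bmpr1a 72.0% ± 0.711 and 77.8% ± 0.405 (SD, n = 4 each). The 3 type II receptor genes summed to 54.8 ± 1.33 and 38.2 ± 0.643 FPKM, with Bmpr2 at 60.2% ± 0.568 of the sum in cocktail and 46.4% ± 1.13 in untreated libraries (SD, n = 4 each).

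**Figure D3:**
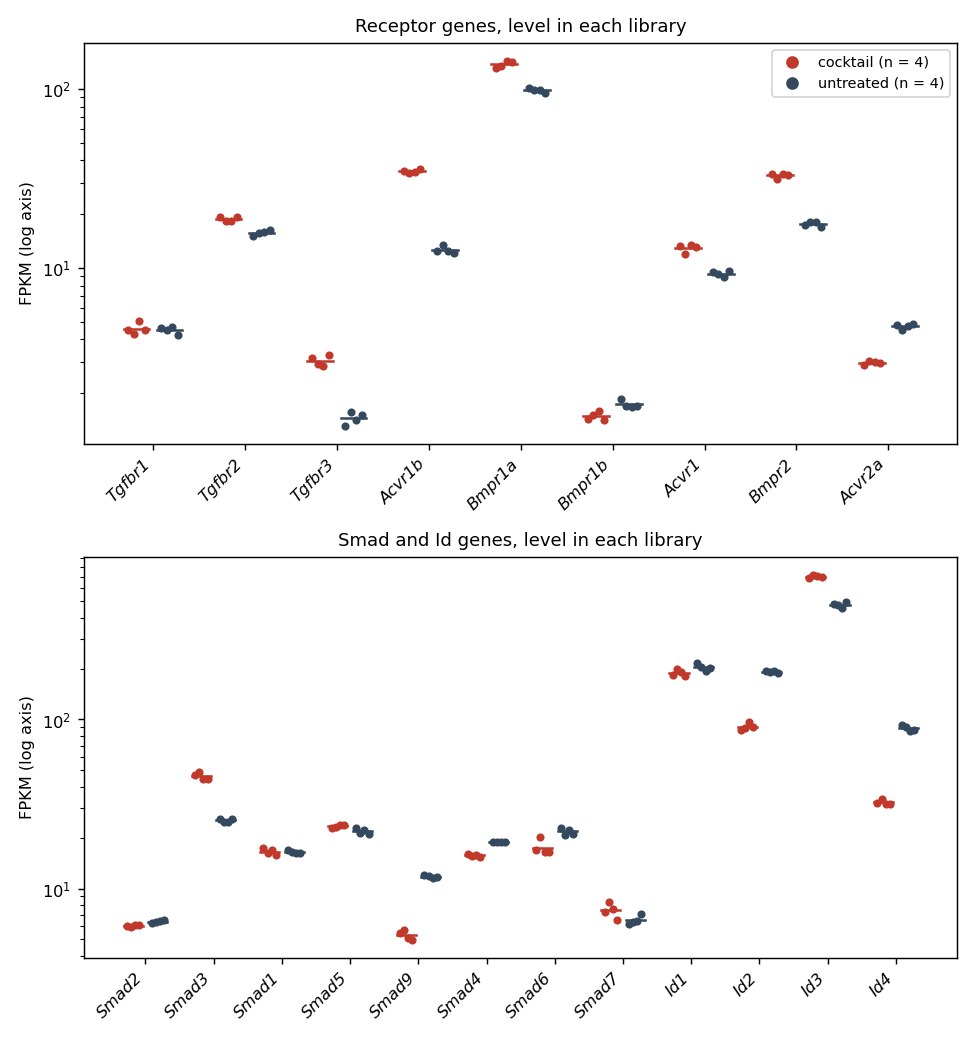
FPKM of receptor genes (top) and of Smad and Id genes (bottom) in each library, on a log axis. Points are libraries, with the 4 cocktail libraries in red left of the 4 untreated libraries in dark blue, and lines are group means. Acvr1b, Bmpr2, Smad3 and Id3 lie higher in every cocktail library, and Smad9, Id2 and Id4 lower.

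The Smad genes of both branches changed unevenly, with 1 member of each moving most. Smad3, which carries TGF-beta and activin signals into the nucleus, ranged over 44.2 to 49.1 FPKM in cocktail and 24.8 to 25.9 FPKM in untreated libraries, a 1.83-fold rise of means (log2 change 0.84 with a standard error of 0.037, adjusted p = 1.4e-09). Smad2, its partner in the same branch, averaged 6.04 ± 0.0729 FPKM in cocktail and 6.39 ± 0.0986 FPKM in untreated libraries (SD, n = 4 each). Its groups did not overlap, and the change was not called (95% interval of the log2 change -0.15 to 0.01, adjusted p = 0.11).

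Smad9, the least abundant of the BMP-branch Smads, had 5.43, 5.67, 5.12 and 4.99 FPKM in cocktail libraries 1 to 4, against 11.996, 11.9, 11.5 and 11.7 FPKM in untreated libraries 1 to 4. Every cocktail library was below every untreated one (log2 change -1.02 with a standard error of 0.043, adjusted p = 1.1e-09). Smad9 lies on chromosome 3 from 54755455 to 54801662. Smad1 averaged 16.5 ± 0.760 FPKM in cocktail and 16.5 ± 0.354 FPKM in untreated libraries (SD, n = 4 each; 95% interval of the log2 change -0.08 to 0.08), and was not called.

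Smad5 averaged 23.4 ± 0.474 FPKM in cocktail and 21.9 ± 0.859 FPKM in untreated libraries (SD, n = 4 each) and was called higher (adjusted p = 0.027). Leaving out cocktail library 3 or 4 ended the call (adjusted p = 0.068 and 0.060), as did leaving out untreated library 2 or 4 (adjusted p = 0.066 and 0.079), or both cocktail libraries 3 and 4 (adjusted p = 0.17). Smad9 held 11.7% ± 0.685 of the summed FPKM of the BMP-branch Smads in cocktail and 23.5% ± 0.514 in untreated libraries (SD, n = 4 each).

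Smad4, the common partner of both branches, ranged over 15.4 to 16.0 FPKM in cocktail and 18.8 to 19.0 FPKM in untreated libraries and was called lower (log2 change -0.25 with a standard error of 0.028, adjusted p = 8.5e-06). The inhibitory Smads, which are themselves induced by TGF-beta and BMP and shut the pathways down, went in opposite directions. Smad6 averaged 17.5 ± 1.74 FPKM in cocktail and 21.8 ± 0.937 FPKM in untreated libraries (SD, n = 4 each) and was called lower (adjusted p = 5.9e-04). Smad7 averaged 7.43 ± 0.728 FPKM in cocktail and 6.52 ± 0.391 FPKM in untreated libraries (SD, n = 4 each), its groups overlapped, and it was called higher (adjusted p = 0.040). The Smad7 call was lost without cocktail libraries 1, 2 or 3 (adjusted p = 0.058, 0.12 and 0.088), without untreated libraries 1, 2 or 3 (0.10, 0.087 and 0.077), without cocktail libraries 1 and 2 (0.23) and without the filter (0.071).

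The Id genes encode helix-loop-helix proteins that lack a DNA-binding region and block other factors of that class, and they are standard targets of BMP signalling. They diverged. Id4 and Id2 fell to less than 50% of their untreated means, Id3 rose, and Id1 was lower by a small step that single libraries decided. Id4 had 32.2, 34.1, 31.8 and 31.5 FPKM in cocktail libraries 1 to 4, against 93.3, 90.3, 85.2 and 87.2 FPKM in untreated libraries 1 to 4. No library of one group came near those of the other (log2 change -1.43 with a standard error of 0.036, adjusted p = 1.3e-11).

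Id2 had 86.2, 88.8, 96.9 and 90.7 FPKM in cocktail libraries 1 to 4, against 194, 191, 193 and 189 FPKM in untreated libraries 1 to 4. The untreated values were tightly grouped and all above the cocktail ones (log2 change -1.07 with a standard error of 0.034, adjusted p = 9.1e-11). Id3, the most abundant of the 4, ranged over 688 to 716 FPKM in cocktail and 454 to 495 FPKM in untreated libraries and was called higher (log2 change 0.55 with a standard error of 0.031, adjusted p = 1.6e-08).

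Id1 averaged 188 ± 8.63 FPKM in cocktail and 204 ± 8.97 FPKM in untreated libraries (SD, n = 4 each), with overlapping groups and a call of lower (log2 change -0.12, adjusted p = 0.020). Leaving out cocktail library 1 or 4 ended the Id1 call (adjusted p = 0.057 and 0.056), as did leaving out untreated library 1 (adjusted p = 0.068) or both cocktail libraries 3 and 4 (adjusted p = 0.088). It was also lost after median-ratio rescaling of the libraries (0.18).

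Summed over the 4 genes the level was 1011 ± 23.3 FPKM in cocktail and 962 ± 25.6 FPKM in untreated libraries, so the make-up differed more than the sum. Id3 held 69.2% ± 0.435 of it in cocktail and 49.6% ± 0.903 in untreated libraries, Id2 8.97% ± 0.404 and 19.9% ± 0.643, and Id4 3.20% ± 0.0823 and 9.25% ± 0.214 (SD, n = 4 each). The plot of family make-up sets this beside 4 other families.

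**Figure D4:**
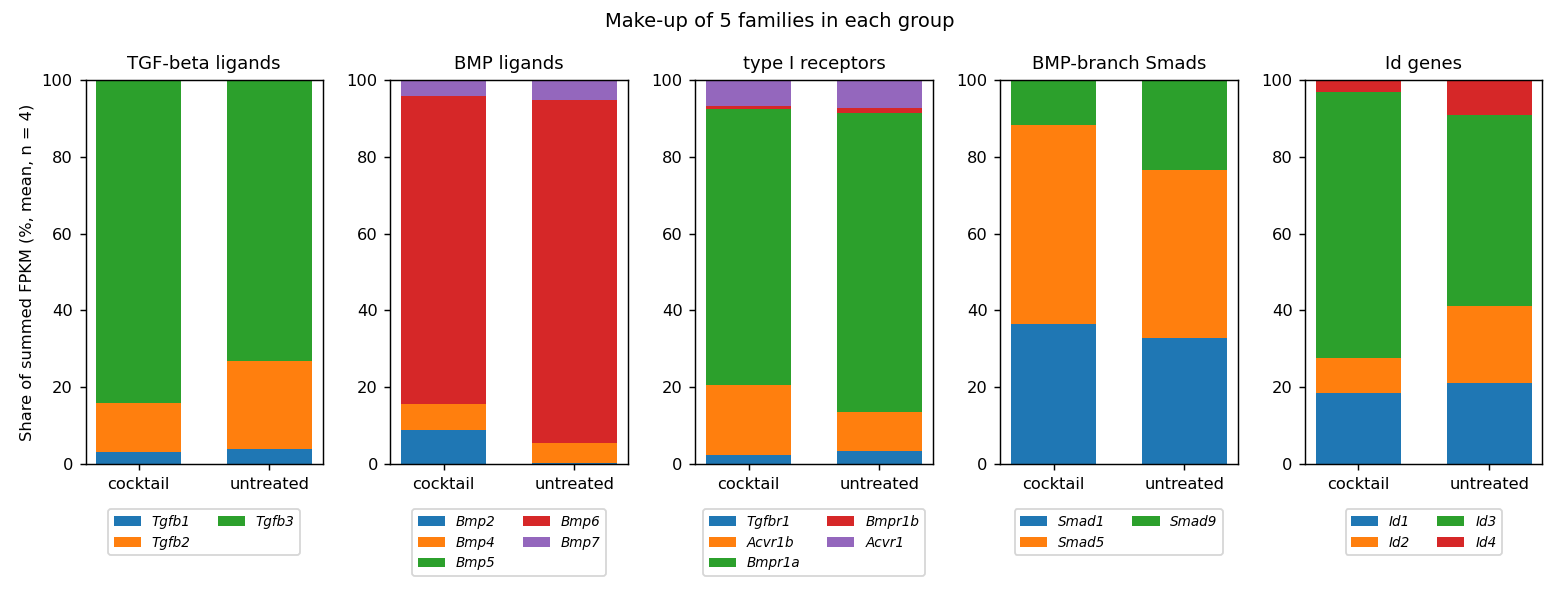
Share of each gene in the summed FPKM of its family, in percent, for the cocktail libraries (left bar) and the untreated libraries (right bar) of 5 families. Segments are means of 4 libraries, stacked in the order of the legend from the bottom. Tgfb3 takes 84.1% ± 1.51 of the TGF-beta ligand sum in cocktail and 73.1% ± 0.888 in untreated libraries, and Id3 69.2% ± 0.435 and 49.6% ± 0.903 of the Id sum.

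The promoters of Id2, Id4 and Smad9, which fell, and of Id3, which rose, are shown to set the sequence before the start site beside these changes. Each line gives the 250 bases before the annotated start, 5′ to 3′ on the gene's strand, from RefSeq on GRCm38.p6. Capitals mark matches, on either strand, to the GC-rich SMAD element GGCGCC or the SMAD box core CAGAC. An NF-kB motif (GGG and TTTCC around 2 free bases) and an AP-1 motif (TGANTCA) were also searched on both strands and are in none of the 4, and no match overlaps another. The windows lie at chr4:136143572-136143821, plus strand (Id3), chr12:25096093-25096342, minus strand (Id2), chr13:48260866-48261115, plus strand (Id4) and chr3:54755332-54755581, plus strand (Smad9). The start used for Smad9 lies inside the span given for the gene above.
Id3: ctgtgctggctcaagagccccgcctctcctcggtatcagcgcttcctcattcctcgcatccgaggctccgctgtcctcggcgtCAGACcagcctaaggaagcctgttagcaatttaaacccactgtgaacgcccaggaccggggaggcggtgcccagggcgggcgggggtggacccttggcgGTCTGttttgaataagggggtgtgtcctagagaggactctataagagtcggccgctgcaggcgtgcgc
Id2: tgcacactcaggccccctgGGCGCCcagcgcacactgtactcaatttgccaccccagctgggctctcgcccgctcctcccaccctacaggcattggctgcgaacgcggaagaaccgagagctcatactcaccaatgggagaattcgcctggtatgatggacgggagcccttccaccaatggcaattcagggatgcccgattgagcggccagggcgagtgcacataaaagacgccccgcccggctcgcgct
Id4: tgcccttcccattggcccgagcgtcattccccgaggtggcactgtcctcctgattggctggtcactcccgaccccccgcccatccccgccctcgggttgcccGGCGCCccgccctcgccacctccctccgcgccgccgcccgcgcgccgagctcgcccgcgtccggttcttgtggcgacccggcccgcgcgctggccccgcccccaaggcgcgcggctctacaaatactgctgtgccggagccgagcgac
Smad9: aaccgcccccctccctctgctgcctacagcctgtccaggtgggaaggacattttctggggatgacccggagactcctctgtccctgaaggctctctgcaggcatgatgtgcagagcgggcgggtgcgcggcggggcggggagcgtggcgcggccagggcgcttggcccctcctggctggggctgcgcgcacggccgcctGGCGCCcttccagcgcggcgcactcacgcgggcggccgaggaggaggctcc

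Id2, Id4 and Smad9 each held 1 GGCGCC and no CAGAC in this window, and Id3 held 2 CAGAC matches and no GGCGCC. Among all 32851 promoters of that set, 9.59% held GGCGCC, 42.2% CAGAC, 1.41% the NF-kB motif and 6.75% the AP-1 motif in the same window. Of the 45 genes 33 were in the promoter table, of which 10 held GGCGCC, 17 CAGAC, 1 the NF-kB motif and 0 the AP-1 motif. A gene counted if any of its promoters held the motif, whereas the shares above count single promoters, so the units differ. The GC content of the 4 printed windows was 62.8% to 75.6%, and no comparison at equal GC content was made. The holders of GGCGCC did not share a direction. Besides Id2, Id4 and Smad9 they were Ltbp4, called lower, Bmpr1a, Bmpr2 and Smad5, called higher, Tgfbr1 and Tgfbi, not called, and Grem1, not tested. The 1 gene with the NF-kB motif was Bmpr1b.

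Tgfbi, a matrix protein gene named for its induction by TGF-beta, had 3.29, 3.75, 4.64 and 5.19 FPKM in cocktail libraries 1 to 4, against 4.06, 3.31, 3.55 and 3.24 FPKM in untreated libraries 1 to 4. Groups overlapped and the change was not called (log2 change 0.19, 95% interval -0.04 to 0.42, adjusted p = 0.13). Cocktail libraries 3 and 4 were the high ones, as for the microglial markers, and the cause was not tested. Without libraries 1 and 2 it was called higher (log2 change 0.38, limma adjusted p = 0.0019), as it was without library 1 alone (log2 change 0.28, adjusted p = 0.021), and without libraries 3 and 4 the change was -0.0048 (adjusted p = 0.96).

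**Figure D5:**
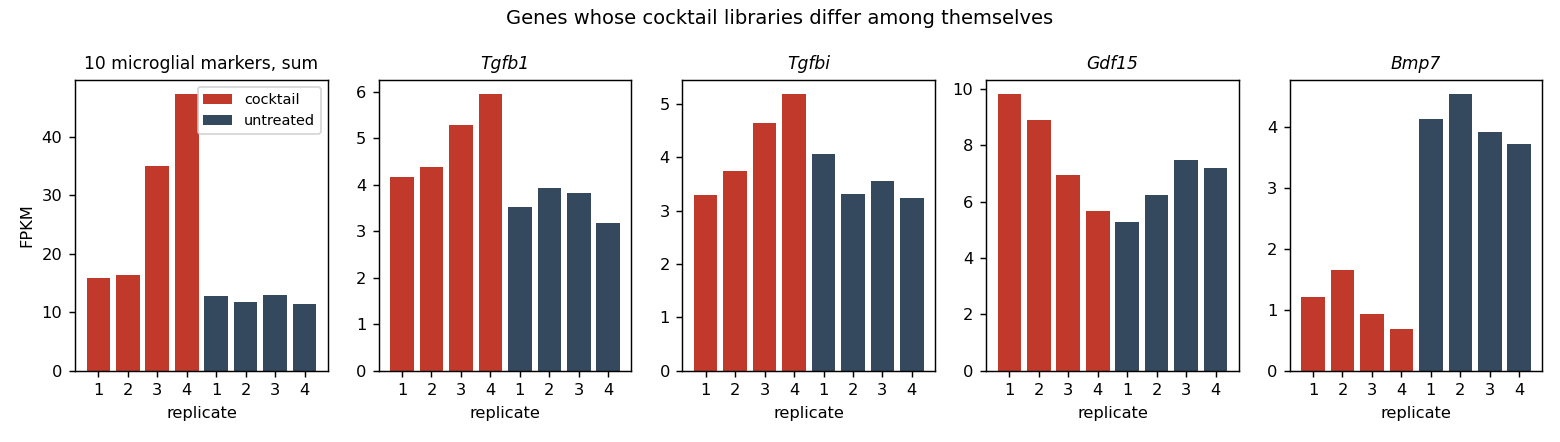
FPKM in each library of the summed 10 microglial markers, Tgfb1, Tgfbi, Gdf15 and Bmp7, which were chosen for display after their values were seen. Bars are single libraries by replicate number, with the 4 cocktail libraries in red left of the 4 untreated libraries in dark blue. Cocktail libraries 3 and 4 are above 1 and 2 for the microglial sum, Tgfb1 and Tgfbi, and below them for Gdf15 and Bmp7.

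A further 85 genes of these pathways were taken from a list drawn up by role in the pathway, with earlier results of these data known. Of these, 50 were tested, with 12 called higher and 22 lower, which is 68.0% against 67.7% of all genes. Their median log2 change was -0.065. Among the called ones, 6 were 2-fold or more higher and 5 were 2-fold or more lower, so 6 and 5 of the 50 tested, against 5.24% and 7.86% of all genes tested. Of the 50, Bmp3 passed the filter only through the cocktail libraries, and Chrd and Tll1, both called lower, only through the untreated ones.

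Genes that free TGF-beta from its latent form or trim ligand precursors were among them. Itgb8, the integrin subunit that with alpha v activates latent TGF-beta, averaged 64.6 ± 2.90 FPKM in cocktail and 29.5 ± 2.23 FPKM in untreated libraries (SD, n = 4 each; adjusted p = 2.4e-09). Pcsk6, a proprotein convertase that cleaves precursors of the TGF-beta family, fell to 8.65 ± 1.38 FPKM in cocktail libraries, against 51.6 ± 3.94 FPKM in untreated libraries (SD, n = 4 each; adjusted p = 3.1e-10). Of the 7 tested genes of this role 3 rose and 3 fell, where 26.6% of all genes tested were called higher and 41.1% lower.

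Of 8 tested antagonist genes 2 rose and 2 fell, where 26.6% of all genes tested were called higher and 41.1% lower. Bmper, which encodes a BMP-binding protein, averaged 6.60 ± 0.270 FPKM in cocktail and 2.22 ± 0.118 FPKM in untreated libraries (SD, n = 4 each; adjusted p = 4.8e-10). Dcn, the gene of the TGF-beta binding proteoglycan decorin, averaged 8.31 ± 2.58 FPKM in cocktail and 1.45 ± 0.146 FPKM in untreated libraries (SD, n = 4 each; adjusted p = 2.9e-07) and is also one of the fibroblast markers. Bmp3, a ligand gene singled out after its values were seen, averaged 3.398 ± 0.0686 FPKM in cocktail and 0.293 ± 0.0265 FPKM in untreated libraries (SD, n = 4 each; adjusted p = 3.4e-11). In all, 18 of the 21 ligand genes of the list stayed below 1 FPKM in every library. The 2 other tested ligand genes, Gdf11 and Inha, were not called.

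Among 16 intracellular regulators 3 rose and 7 fell, where 26.6% of all genes tested were called higher and 41.1% lower. Tgif1, a corepressor that binds Smad complexes, averaged 22.9 ± 1.36 FPKM in cocktail and 10.04 ± 0.450 FPKM in untreated libraries (SD, n = 4 each; adjusted p = 9.3e-10), and no other of the 16 changed 2-fold. Of 4 other tested receptor and co-receptor genes 1 rose and 1 fell. Rgma rose 1.41-fold (adjusted p = 3.8e-07) and Rgmb fell to 5.55 FPKM in cocktail libraries, against 7.45 in untreated libraries (adjusted p = 3.6e-06), both co-receptors of BMPs.

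Most of the listed response genes of TGF-beta fell. Of 7 tested 1 was called higher and 5 lower, where 26.6% of all genes tested were called higher and 41.1% lower. Col1a1 and Col3a1 of these 7 are also fibroblast markers. Ctgf, which encodes a matrix-associated growth factor, averaged 64.1 ± 6.39 FPKM in cocktail and 397 ± 8.36 FPKM in untreated libraries (SD, n = 4 each; adjusted p = 4.5e-12). Acta2 and Tagln, contractile genes that are also mural markers, averaged 111 ± 5.48 and 116 ± 5.72 FPKM in cocktail libraries, against 581 ± 31.7 and 555 ± 32.0 FPKM in untreated libraries (SD, n = 4 each; adjusted p = 1.3e-12 and 2.3e-12).

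Of 5 tested response genes of BMP 1 rose and 4 fell, where 26.6% of all genes tested were called higher and 41.1% lower. Hey1, a transcription factor gene that Notch also induces, averaged 11.7 ± 0.447 FPKM in cocktail and 37.9 ± 1.23 FPKM in untreated libraries (SD, n = 4 each; adjusted p = 5.1e-12). Msx2 rose 1.63-fold (adjusted p = 5.7e-07), and Msx1, of the same homeobox family, fell to 1.19 FPKM in cocktail libraries, against 2.18 in untreated libraries (adjusted p = 2.6e-05).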

How the data were processed

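The authors deposited FPKM values for 21878 genes in 8 libraries, of which 4620 genes were at 0 in every library. Total RNA had been extracted with TRIzol and turned into TruSeq Stranded mRNA libraries, per the labels' protocols. DESeq and the build mm10 are named per the submitters' processing notes, and how reads were aligned and counted is not given in the sources used here. Columns were matched to samples by description, and groups came from titles, since the treatment labels of 3 cocktail libraries spell C1q with other digits.

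FPKM ratios within a gene were whole-number ratios to a relative tolerance of 1e-11, which gave whole fragments for 16557 genes and the library totals. A count of 0 allows up to 3 fragments, or 0.0727 to 0.0781 FPKM for a 2 kb gene, for counting error only. Chi-square per gene between replicates was 2.11 to 6.79, above the value of sampling noise. It was 2.29 between cocktail libraries 1 and 2 and 2.55 between 3 and 4, against 4.12 to 6.79 across these pairs. Each library was counted as 1 sample, although these values do not show that the libraries are independent.

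Groups were compared with limma 3.58.1 in R 4.3.3, with the trend option and treatment as the 1 term, after a filter that kept genes at 1 FPKM or more in 4 libraries, on a scale of log2(FPKM + 1); recovery and fit were checked on simulated data. Members, lists and tests were chosen with earlier results of these data known. Full library values are given for genes called with at least a 2-fold change and for the 3 TGF-beta ligands, and other pathway genes were named at 2-fold and at least 5 FPKM. Alternatives were another pseudocount, no filter, rescaling, voom on fragments, no trend, a replicate block, and leaving out libraries. Positions came from RefSeq and exon overlaps from GENCODE, both on GRCm38. Some results for genes outside the 45 are not reported here.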

Additional observations from a re-analysis of the deposited data

Results flagged for a closer look

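In 3 of 90 groups of 4 libraries (45 genes in 2 groups) a single library stood apart, by a gap above Dixon's 95% critical value. Chance flags about 1 in 20 such groups, which is 4.5 of 90. Smad6 had 20.1 FPKM in cocktail library 2, against 16.4 to 16.9 in the other cocktail libraries (gap 0.873 of the range). Bmpr1b had 1.87 FPKM in untreated library 1, against 1.68 to 1.70 in the other untreated libraries (gap 0.905 of the range). Bmp5 had 0 fragments in cocktail library 4 and 1 in each of the others (gap 0.942 of the range), which is a difference of 1 fragment.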

How the results depend on the processing

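Counts of called genes stayed within 1.5 times the reported ones under all 16 alternatives, for all genes, the 45 genes and the other pathway genes. Among the 42 tested genes, 30 kept their direction and side of the threshold under every alternative. The other 12 gave 31 lost calls, 8 gained calls and 12 changes of sign. All sign changes were in genes that were not called. Leaving out 1 library gave -0.024 to 0.045 for Tgfbr1, -0.091 to 0.011 for Fstl3 and -0.021 to 0.026 for Smad1. Tgfbr1 turned negative without cocktail library 3 or untreated library 4 and was -0.037 without cocktail libraries 3 and 4. Smad1 turned negative without cocktail library 1 or 3 or untreated library 3 or 4 and was -0.017 without cocktail libraries 1 and 2. Fstl3 turned positive without untreated library 4 and was 0.0027 after median-ratio rescaling. Gdf15 turned to -0.042 without cocktail libraries 1 and 2, and Tgfbi to -0.0048 without 3 and 4. The cause was not tested. Median-ratio rescaling also ended the call of Bmpr1b (adjusted p = 0.12), voom gave Tgfb2 a call of lower (adjusted p = 0.043), and over all genes 48.3% of the calls were rises after rescaling, against 39.3% as deposited. The median of all genes was -0.0023 after rescaling.

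Replicate numbers did not pair the libraries, with correlations of -0.044, 0.078, 0.086 and -0.0071 for numbers 1 to 4. Cocktail libraries 2 and 3 correlated best with their own number, and 1 and 4 did not. With the replicate block 16 of the 45 genes were called higher and 16 lower, without Bmpr1b (adjusted p = 0.082) and Smad7 (0.066), and over all genes 3121 and 4829. Leaving out 1 library gave 15 to 17 calls higher and 15 to 18 lower. With 4 libraries a group and fewer than 30 fragments in every library, Bmp5 and Grem1 are limited by depth.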
